A study of Mus musculus with 17 samples.

Results

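The effect of GW3965 on liver messenger RNA, averaged over control mice and mice treated to lose hepatocyte Gata4, was described across all genes. Every one of the 17 libraries of the series entered: 9 from GW3965-treated mice and 8 from vehicle-treated mice, grouped by sample title. The averaged effect is the mean of 2 differences on the log2(normalized count + 1) scale, GW3965 minus vehicle in control and GW3965 minus vehicle in Gata4LKO, so that genotype does not enter it. Of 24676 genes in the table, 13379 were tested, having 10 or more normalized counts in 4 or more libraries.

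All mice were male, of mixed strain, 11 weeks old per the sample labels (the series' design text gives a younger age), and homozygous for a loxP-flanked Gata4 allele. Control mice had received an empty adeno-associated virus of serotype 8 (AAV8) and Gata4LKO mice the same virus with Cre recombinase behind the hepatocyte promoter Tbg, 1 week earlier, so Cre and the loss of Gata4 cannot be told apart. GW3965, which activates the liver X receptors (LXR), is a synthetic compound and was given by gavage in canola oil at 40 mg/kg, at 17 h and again at 8 h before killing. Vehicle mice received dimethylsulfoxide in the same oil, and all were fasted for 4 h. There were 4 control vehicle, 4 control GW3965, 4 Gata4LKO vehicle and 5 Gata4LKO GW3965 libraries. Gata4 itself was at 128, 169, 183 and 132 normalized counts in control vehicle libraries, 181, 137, 234 and 223 in Gata4LKO vehicle libraries, 164, 254, 258 and 209 in control GW3965 libraries and 260, 194, 244, 160 and 239 in Gata4LKO GW3965 libraries, so the genotypes overlapped. Which exons are floxed is not stated in the labels used here, and counts over the whole gene check the deletion only as far as the deleted part contributes to them.

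Liver X receptors (LXRs) are nuclear receptors that bind oxidised forms of cholesterol and act as heterodimers with retinoid X receptors. In liver they are known for switching on transporters that move sterol out of the cell and for switching on Srebf1 and, through it, the synthesis of fatty acids. Sensing of sterol in the endoplasmic reticulum controls cholesterol synthesis through a related factor, encoded by Srebf2.

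Library depth, as reads recovered over all genes, lay between 11.8 M and 22.05 M. The treatment characteristic of 8 libraries, those of the Gata4LKO vehicle and control GW3965 groups, contradicts the sample title, and the titles were followed. Mitochondrially encoded transcripts took 15.6 to 32.6% of normalized counts in 5 libraries (control vehicle 1, control GW3965 10 and 13, Gata4LKO GW3965 17 and 18) and 6.06 to 7.26% in the other 12. The averaged difference in that share was 4.80 percentage points higher with GW3965 (exact permutation of treatment within genotype over 8820 arrangements, two-sided p = 0.220). Gm5345 was at or below 1.64 normalized counts in 6 libraries, all 4 Gata4LKO vehicle libraries and control GW3965 libraries 9 and 10. No Gata4LKO GW3965 library and no control vehicle library was that low. Within Gata4LKO, the Gm5345 split and treatment therefore cannot be told apart. The deposited labels do not say that each library is a separate mouse, so p-values measure the spread between libraries.

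GW3965 changed 238 of 13379 genes at an adjusted p below 0.05 (limma-trend, Benjamini-Hochberg), which is 1.78% of those tested. Of these, 179 (1.34%) were higher and 59 (0.441%) lower with GW3965. The higher genes had a median averaged difference of 0.83 on the log2 scale, and 69 of them exceeded 1. The lower genes had a median of -0.60, and 8 of them fell by more than 1. Over all genes tested the median was -0.0063. All 9 GW3965 libraries stood above all 8 vehicle libraries for 46 genes (0.344% of those tested), and below them for 10 (0.0747%). Genes just inside the threshold were Ldhd, Tmie and Slc30a5, each at an adjusted p of 0.0493, and those just outside were Glud1 (0.0507), Hspa2 (0.0507) and Adamts15 (0.0514).

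**Figure D1:**
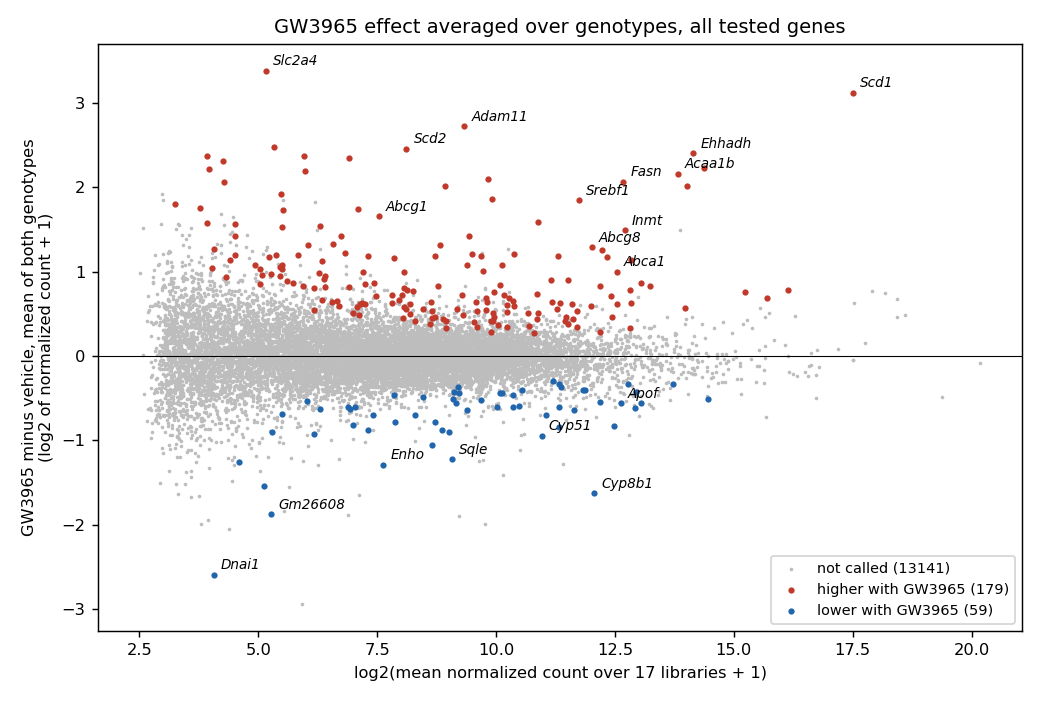
Averaged GW3965 minus vehicle difference (log2 of normalized count + 1, vertical) against mean level (log2, horizontal) for each of 13379 genes. The 179 genes higher with GW3965 are red and the 59 lower are blue; Scd1 is the highest expressed gene among those with a difference above 3.

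Averaging drew in genes that neither genotype gave alone, and left out some that a single genotype gave. GW3965 against vehicle called 106 genes in control (0.792%) and 33 in Gata4LKO (0.247%; 27 higher, 0.202%, and 6 lower, 0.0448%) in the same fit. Of the 106 genes called in control, 86 were also called for the average, as were 30 of the 33 in Gata4LKO. Of the 238 genes called for the average, 17 were also called in both genotypes, 69 in control only, 13 in Gata4LKO only and 139 in neither. The 17 were Scd1, Scd2, Elovl6, Fads2, Abcg1, Abcg5, Abcg8, Ehhadh, Acaa1b, Acot2, Lipa, Inmt, Adam11, Cert1, Tmem135 and Sema6d, all higher, and Gm26608, lower. Among the 139 were Cdh5, Cadm1, B4galt6, Gpd2, Ccdc148 and Lacc1 on the higher side and Hopx, Msmo1, Mocs1, Gm8941, C4bp and Aldh1a1 on the lower. Hopx, a small homeodomain protein, ranged from 559 to 686 normalized counts in vehicle libraries and from 395 to 536 with GW3965, with no overlap, at an averaged log2 difference of -0.43 ± 0.07 (SE; adjusted p = 0.00376). Gpd2, the mitochondrial glycerol-3-phosphate dehydrogenase, ranged from 462 to 702 and from 749 to 1142, again without overlap, and rose by 0.64 ± 0.11 (adjusted p = 0.00511).

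LXR targets that carry sterol out of the cell or remodel membranes had the highest median of the 39 gene lists. The lists were chosen with earlier results of these data known, so this rank carries no test. Of the 15 members, all tested, 9 rose (60%, against 1.34% of all genes tested) and none fell. The list median was 0.81 on the log2 scale against -0.0063 over all genes. The Abcg8 protein pairs with Abcg5 to pump sterol into bile. Abcg8 was at 2516, 2323, 2429 and 2929 normalized counts in the control vehicle libraries and 5208, 8627, 6714 and 5533 in the control GW3965 libraries. In Gata4LKO it was at 2260, 2272, 1976 and 1845 with vehicle and 5188, 3552, 7304, 4960 and 4502 with GW3965. Every GW3965 library was above every vehicle library, and the averaged difference was 1.29 ± 0.13 (SE), a 2.45-fold rise (limma adjusted p = 2.49e-05).

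Abcg5 ranged from 935 to 1865 (median 1486) with vehicle and from 2144 to 4915 (median 3120) with GW3965, and rose by 1.19 ± 0.16 (adjusted p = 0.000474). Abca1, which loads cholesterol onto apolipoprotein A-I, was at 3453, 4272, 3566 and 3663 in control vehicle libraries and at 6088, 13612, 8804 and 6771 with GW3965, against 3786, 3873, 4016 and 4010 and then 6846, 5847, 8462, 6685 and 7401 in Gata4LKO. Its vehicle libraries lay within a narrow band and its GW3965 libraries all above it, with an averaged rise of 1.00 ± 0.13 (adjusted p = 0.000327). Abcg1, a sterol exporter to high density lipoprotein that is abundant in macrophages, rose by 1.66 ± 0.20 from a vehicle median of 77.7 to a GW3965 median of 282 (adjusted p = 0.00022). In bulk liver, more cells of a type and more RNA per cell cannot be told apart.

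Lpcat3, which puts polyunsaturated chains into phospholipids, rose by 0.91 ± 0.13 (limma adjusted p = 0.000928), and the ubiquitin ligase gene Rnf145 by 1.07 ± 0.15 (0.000928); neither had overlapping arms. Mylip, whose protein sends the LDL receptor for degradation, rose by 0.78 ± 0.16 (0.0132), Pltp, a phospholipid transfer protein of plasma, by 0.81 ± 0.15 (0.00649), and Lpl, lipoprotein lipase, by 1.31 ± 0.22 (0.0034). The arms of these 3 genes overlapped. The receptors themselves showed no call: Nr1h3 had an averaged difference of -0.14 ± 0.08 (adjusted p = 0.432) and Nr1h2 of -0.14 ± 0.13 (0.622). Neither did Apoe (0.16 ± 0.16), Smpdl3a (0.19 ± 0.11), Arl4c (0.35 ± 0.24) or Cyp7a1 (0.33 ± 0.25), the rate-limiting enzyme of bile acid synthesis. Without the 5 libraries of high mitochondrial share, 8 of the 15 members were higher.

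**Figure D2:**
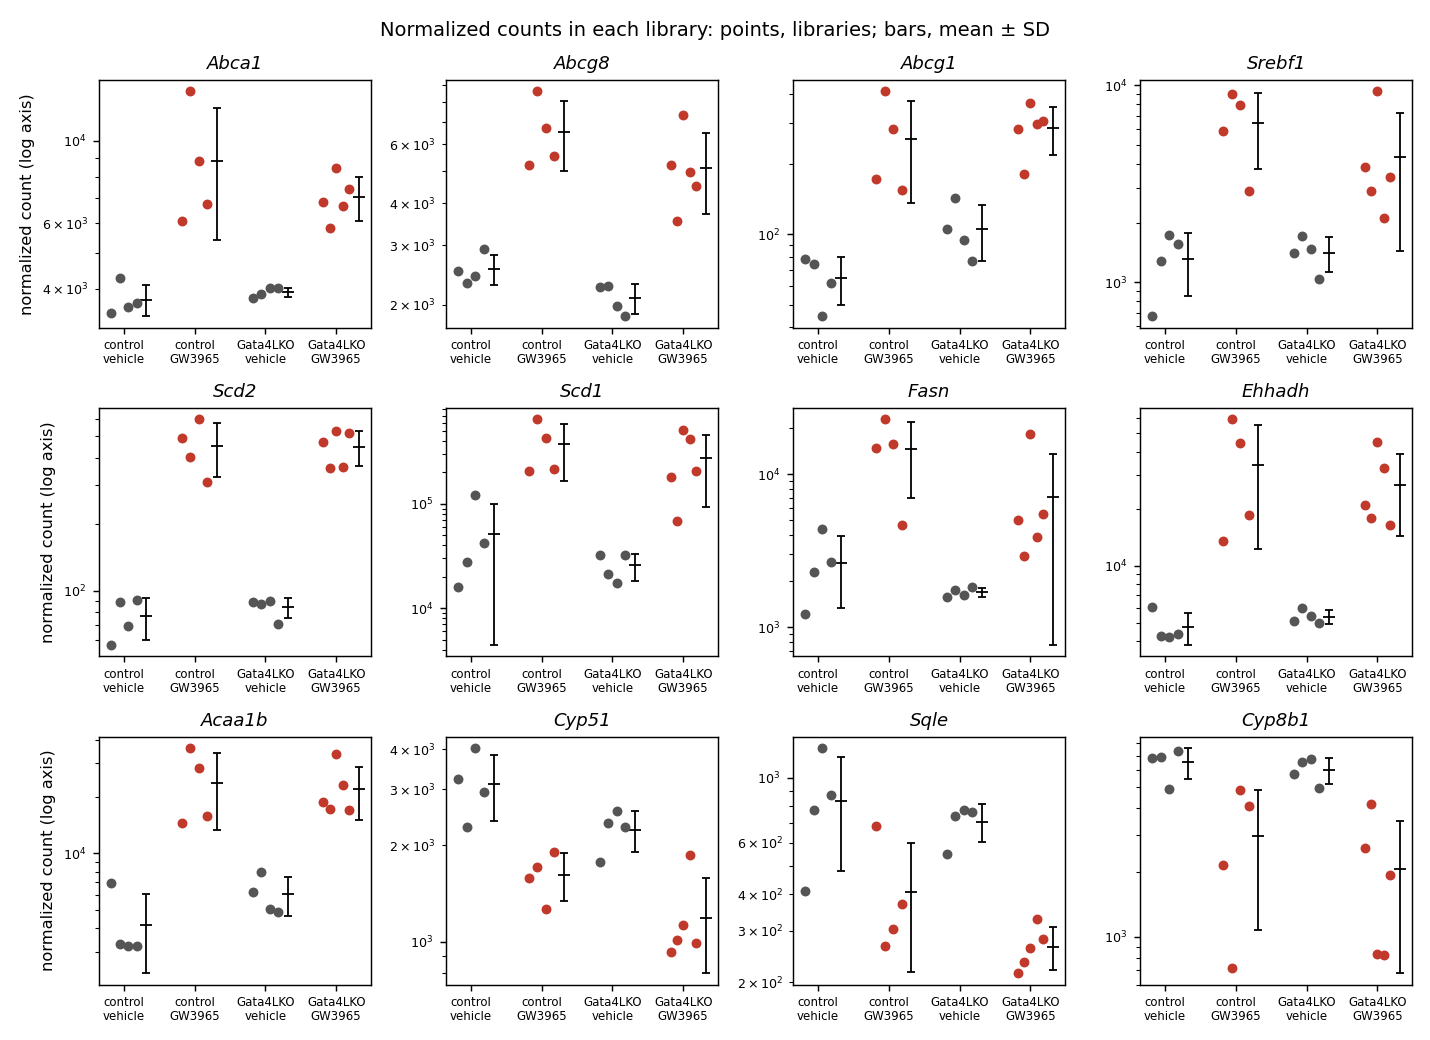
Normalized counts of 12 genes in each library (log axis), by genotype and treatment; points are libraries and bars are the mean ± SD. Abca1, Abcg8, Abcg1, Srebf1, Scd2, Ehhadh and Acaa1b have every GW3965 library above every vehicle library, and Cyp8b1 has every one below.

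Regulators of lipid synthesis rose in part. Of 13 members, 5 rose (38.5%, against 1.34% of all genes tested) and none fell, and the list median was 0.04. Srebf1 encodes SREBP-1, the transcription factor that drives fatty acid synthesis genes. It was at 670, 1283, 1732 and 1560 normalized counts in control vehicle libraries and at 5884, 9011, 7986 and 2888 with GW3965, and in Gata4LKO at 1413, 1708, 1479 and 1037 and then 3869, 2890, 9363, 2124 and 3406. No GW3965 library reached down to the vehicle range. The averaged difference was 1.85 ± 0.28 (limma adjusted p = 0.00142). Control mice alone gave 2.26 and Gata4LKO mice alone 1.44, and these 2 values were not called different (limma adjusted p = 0.997).

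Mlxipl, which encodes the carbohydrate-responsive factor ChREBP, ranged from 2827 to 3935 with vehicle and from 4321 to 10266 with GW3965 and rose by 0.83 ± 0.15 (limma adjusted p = 0.00511). Thrsp, a thyroid hormone-responsive lipogenic protein, rose by 1.25 ± 0.25 (0.0128), its relative Mid1ip1 by 1.21 ± 0.28 (0.0343) and Insig1, which holds the SREBP escort protein in the endoplasmic reticulum, by 0.63 ± 0.12 (0.00987). These 3 had overlapping arms, and Mid1ip1 was lost in 9 of the 17 fits that left out a library (highest adjusted p 0.0806). Srebf2 stood at -0.39 ± 0.19 (adjusted p = 0.332), Scap at -0.23 ± 0.09 (0.241) and Usf1 at -0.36 ± 0.15 (0.258). Without the 5 libraries of high mitochondrial share, 3 of the 13 regulators were higher.

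Fatty acid synthesis, elongation and desaturation held some of the largest rises. Of 17 members, 8 rose (47.1%, against 1.34% of all genes tested) and none fell, with a list median of 0.47. The count was 8 in every fit that left out 1 library and without the 5 libraries of high mitochondrial share. Scd2, a stearoyl-CoA desaturase that adult liver expresses weakly, had the smallest p of all genes tested. It was at 56.8, 89.1, 69.1 and 91.2 normalized counts in control vehicle libraries and 493.4, 404, 597 and 311 with GW3965. In Gata4LKO it was at 88.8, 87.3, 89.5 and 71.0 and then 470, 360, 528, 362 and 517. No library lay between 91.2 and 311, and the averaged difference was 2.46 ± 0.14, a 5.49-fold rise (limma adjusted p = 1.61e-08).

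Scd1, the main hepatic desaturase and the most abundant gene of the list, rose by 3.12 ± 0.41, or 8.71-fold (limma adjusted p = 0.000417). Its vehicle libraries ran from 16128 to 120511 normalized counts (median 29853) and its GW3965 libraries from 67670 to 641814 (median 216279). The arms overlapped because control vehicle library 3, at 120511, stood above Gata4LKO GW3965 library 15, at 67670. Fasn, fatty acid synthase, was at 1220, 2308, 4351 and 2678 in control vehicle libraries and 14816, 22850, 15804 and 4661 with GW3965, and at 1580, 1744, 1624 and 1830 and then 5052, 2900, 18428, 3864 and 5512 in Gata4LKO. The same control vehicle library 3 overlapped 2 of the Gata4LKO GW3965 libraries, and the averaged rise was 2.07 ± 0.35 (0.00357).

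Elovl6, which extends palmitate to stearate, rose by 1.59 ± 0.17 (limma adjusted p = 5.55e-05), Fads2, the delta-6 desaturase, by 1.14 ± 0.15 (0.000335) and Elovl5 by 0.78 ± 0.12 (0.00149). The acetyl-CoA carboxylases that make malonyl-CoA both rose, Acaca by 1.19 ± 0.18 (0.00142) and Acacb by 1.21 ± 0.23 (0.00834). The steps that supply their substrate did not pass: Acly had 0.44 ± 0.17 (0.212), Acss2 0.12 ± 0.23 (0.822), Slc25a1 0.01 ± 0.12 (0.984) and Me1 0.47 ± 0.17 (0.186). Of 11 genes for NADPH and sugar supply none was called, and the list median was 0.24. Pklr, pyruvate kinase of liver, stood at 0.20 ± 0.21.

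Triglyceride and phospholipid genes gave 2 calls among 17 (11.8%, against 1.34% of all genes tested called higher), Lpcat3 and Gpam. Gpam, the mitochondrial acyltransferase that starts glycerolipid synthesis, rose by 0.62 ± 0.11 (limma adjusted p = 0.0056). Gpat4, the acyltransferase of the same step in the endoplasmic reticulum, was outside the list and rose by 0.71 ± 0.12 (0.0034). Dgat2 had -0.45 ± 0.19 (0.26) and Dgat1 -0.19 ± 0.19 (0.645), and of 14 lipid droplet and lipolysis genes tested none was called. Acyl-CoA synthetases, a family singled out after the values were seen, rose in all 4 tested members, against 1.34% of all genes tested. The rises were 1.42 ± 0.18 for Acsl3 (0.000374), 0.76 ± 0.14 for Acsl1 (0.00879), 0.51 ± 0.11 for Acsl4 (0.0236) and 0.47 ± 0.09 for Acsl5 (0.0128). Acsl3 ranged from 204 to 611 with vehicle and from 638 to 1527 with GW3965 and had no overlap.

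Promoters are shown for the 5 called genes whose window held an LXR element, since these include Abca1, Srebf1, Fasn and Acsl3. The windows came from RefSeq (GRCm38.p6) and covered 250 bases before to 50 bases after each start, 300 in all. The motif searched on both strands was GGTNANNNNNGGTCA, a pair of half-sites 4 bases apart, spelled so as to hold the known elements of Abca1 and Srebf1, so its presence in those genes is no finding. It occurred in 61 of 27025 genes with a window (0.226%), in 18 of 10123 tested genes (0.178%), in 4 of 134 genes called higher (2.99%) and in 1 of 42 called lower (2.38%). The 4 higher genes include Abca1 and Srebf1, so their share is in part built into the spelling of the motif. The 250 bases before the start follow, 5′ to 3′ on the gene's strand, with the match in capitals. They lie at chr4:53159896-53160145 on the minus strand for Abca1, chr1:78657575-78657824 on the plus strand for Acsl3, chr11:120824548-120824797 on the minus strand for Fasn, chr12:98575128-98575377 on the minus strand for Kcnk10 and chr11:60210472-60210721 on the minus strand for Srebf1.
Abca1: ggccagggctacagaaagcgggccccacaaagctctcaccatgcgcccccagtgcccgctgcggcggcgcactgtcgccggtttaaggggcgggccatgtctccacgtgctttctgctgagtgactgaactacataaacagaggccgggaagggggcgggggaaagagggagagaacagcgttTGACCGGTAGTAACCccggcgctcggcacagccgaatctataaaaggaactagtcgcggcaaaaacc
Acsl3: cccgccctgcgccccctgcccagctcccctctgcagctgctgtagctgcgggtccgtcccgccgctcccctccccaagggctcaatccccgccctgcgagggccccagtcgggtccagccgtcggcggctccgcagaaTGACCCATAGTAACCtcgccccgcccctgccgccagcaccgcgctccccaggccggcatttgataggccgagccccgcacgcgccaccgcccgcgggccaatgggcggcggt
Fasn: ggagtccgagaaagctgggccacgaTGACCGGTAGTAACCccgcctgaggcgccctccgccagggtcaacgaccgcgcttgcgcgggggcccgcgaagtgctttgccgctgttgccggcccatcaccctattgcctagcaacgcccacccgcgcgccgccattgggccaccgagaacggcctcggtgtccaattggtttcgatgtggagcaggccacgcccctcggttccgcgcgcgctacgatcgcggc
Kcnk10: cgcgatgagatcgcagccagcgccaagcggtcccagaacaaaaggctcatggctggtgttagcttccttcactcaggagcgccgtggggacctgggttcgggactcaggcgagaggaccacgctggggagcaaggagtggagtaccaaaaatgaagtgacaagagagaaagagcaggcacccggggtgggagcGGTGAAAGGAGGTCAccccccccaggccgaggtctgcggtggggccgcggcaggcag
Srebf1: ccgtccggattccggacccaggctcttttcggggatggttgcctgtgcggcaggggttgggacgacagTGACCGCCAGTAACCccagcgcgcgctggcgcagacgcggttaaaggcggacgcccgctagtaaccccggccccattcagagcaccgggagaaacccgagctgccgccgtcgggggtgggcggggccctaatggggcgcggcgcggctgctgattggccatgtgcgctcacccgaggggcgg
The first base of the match lies at -67 for Abca1, -112 for Acsl3, -225 for Fasn, -57 for Kcnk10 and -182 for Srebf1, counted from the start. In the 4 genes that rose, the match reads on the strand opposite to the gene, as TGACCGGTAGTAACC in both Abca1 and Fasn, TGACCCATAGTAACC in Acsl3 and TGACCGCCAGTAACC in Srebf1. Kcnk10, a potassium channel gene called lower at -1.26 ± 0.31 (limma adjusted p = 0.0452), carries it on the gene's own strand as GGTGAAAGGAGGTCA. A sterol regulatory element, TCACNCCAC on either strand, was found in 1.51% of tested genes, in 3 of 134 called higher (2.24%: Acsl1, Ehhadh and Mlxipl) and in none of the 42 called lower. A match is a description of letters and not of binding.

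Cholesterol synthesis genes fell where they were called. Of 20 enzymes, 4 fell (20%, against 0.441% of all genes tested) and none rose, and the list median was -0.27. Of the 20 differences 16 were negative, against 6839 of 13379 over all genes tested. Fits that left out 1 library called 3 to 7 of them lower, with 7 only in the fit without control vehicle library 1. Sqle, squalene epoxidase, was at 411, 776, 1264 and 873 normalized counts in control vehicle libraries and 683, 266, 303 and 371 with GW3965, and at 549, 739, 774 and 766 and then 214, 234, 262, 328 and 281 in Gata4LKO. The Gata4LKO arms did not overlap, and the control arms did through control vehicle library 1 and control GW3965 library 9. The averaged difference was -1.22 ± 0.20 (limma adjusted p = 0.00326). Cyp51, lanosterol demethylase, was at 3224, 2281, 4036 and 2932 and then 1579, 1715, 1261 and 1912 in control, and at 1774, 2343, 2558 and 2278 and then 926, 1015, 1124, 1873 and 993 in Gata4LKO. Control arms did not overlap, Gata4LKO library 17 alone reached the vehicle range, and the averaged difference was -0.94 ± 0.14 (0.00149).

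Msmo1, the sterol C4-methyl oxidase, fell by 0.84 ± 0.18 on the log2 scale (limma adjusted p = 0.0165) and Mvk, mevalonate kinase, by 0.81 ± 0.18 (0.0244). Mvk was lost in 6 of the 17 fits that left out a library (highest adjusted p 0.0622). Idi1 had -1.08 ± 0.32 (0.0966), Mvd -0.94 ± 0.26 (0.0748) and Nsdhl -0.60 ± 0.18 (0.106), which did not pass. Hmgcs1, HMG-CoA synthase, had -0.32 ± 0.11 (0.167). Of 12 sterol uptake and trafficking genes tested none was called.

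Bile acid genes gave calls in both directions, 2 higher and 2 lower of 21 (9.52% each, against 1.34% and 0.441% of all genes tested). Cyp8b1, the 12-alpha-hydroxylase that sets the share of cholic acid, was at 6834, 6940, 4917 and 7379 normalized counts in control vehicle libraries and 2161, 718, 4846 and 4098 with GW3965. In Gata4LKO it was at 5764, 6523, 6732 and 4966 and then 2598, 4191, 834, 823 and 1953. All GW3965 libraries lay below all vehicle libraries, by a margin of 4846 against 4917 at the closest, and the averaged difference was -1.62 ± 0.35 (limma adjusted p = 0.0237). Neither genotype alone called it (adjusted p = 0.325 in control and 0.142 in Gata4LKO), it was lost in 3 of the 17 fits that left out a library (highest 0.0535), and without the 5 libraries of high mitochondrial share it was at -1.24 (adjusted p = 0.0986). Baat, which joins bile acids to taurine or glycine, fell by 0.40 ± 0.08 (0.0197).

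Cyp2c70, which hydroxylates bile acids to muricholic forms in mice, rose by 0.84 ± 0.17 (limma adjusted p = 0.0139), and Abcc4, an exporter of the basolateral membrane, by 1.43 ± 0.22 (0.00201). Without the 5 libraries of high mitochondrial share Abcc4 was at 1.24 (adjusted p = 0.0544). Cyp7b1 had -0.59 ± 0.28 (0.319), Nr0b2 0.53 ± 0.35 (0.484), Abcb11 0.33 ± 0.13 (0.256) and Slc10a1 0.01 ± 0.10 (0.967).

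**Figure D3:**
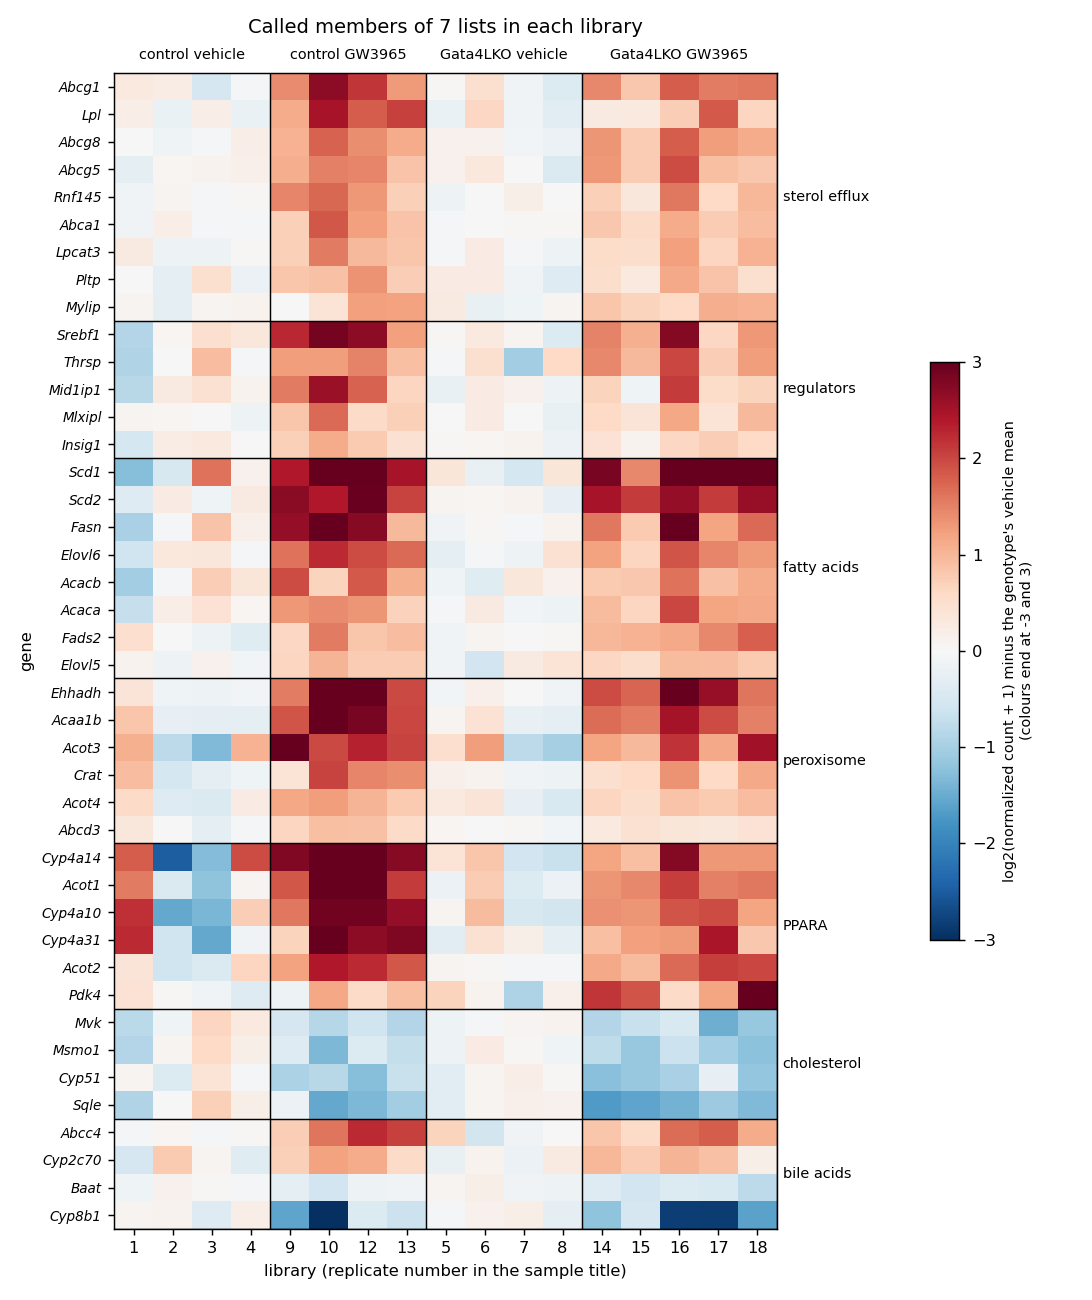
Called members of 7 gene lists, other than any not reported here (vertical), in each of the 17 libraries (horizontal, by group), coloured by log2(normalized count + 1) minus the mean of the vehicle libraries of the same genotype. Of the 42 genes, 34 lie above the vehicle mean in all 9 GW3965 libraries and 6 below it in all 9 (Sqle, Cyp51, Msmo1, Mvk, Cyp8b1 and Baat); Mid1ip1 and Pdk4 lie above it in 8.

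Peroxisomal oxidation and other genes known as targets of the fatty acid receptor PPARA rose as well. Of 17 peroxisomal genes 7 rose (41.2%) and none fell (list median 0.24). Of 16 other PPARA targets 6 rose (37.5%) and none fell (list median 0.56). Over all genes tested, 1.34% were called higher and 0.441% lower. Ehhadh, the peroxisomal bifunctional enzyme, was at 6093, 4265, 4204 and 4384 normalized counts in control vehicle libraries and 13521, 59114, 44636 and 18514 with GW3965. In Gata4LKO it was at 5093, 6000, 5451 and 4981 and then 20832, 17895, 45172, 32751 and 16347. The lowest GW3965 library exceeded the highest vehicle library by more than the whole vehicle range, and the averaged rise was 2.40 ± 0.26, or 5.28-fold (limma adjusted p = 7.43e-05). Acaa1b, a peroxisomal thiolase, ranged from 3202 to 7979 with vehicle and from 14572 to 36286 with GW3965, and rose by 2.16 ± 0.21 (2.49e-05). Its paralog Acaa1a had 0.10 ± 0.17 (0.782).

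Abcd3, a peroxisomal importer, rose by 0.57 ± 0.08 (limma adjusted p = 0.00142) and Crat, carnitine acetyltransferase, by 1.08 ± 0.21 (0.0126). The cytosolic, mitochondrial and peroxisomal thioesterases Acot1 to Acot4 stand side by side on chromosome 12 and all rose: Acot1 by 2.10 ± 0.31 (0.00131), Acot2 by 1.75 ± 0.21 (0.000249), Acot3 by 2.02 ± 0.39 (0.0106) and Acot4 by 0.90 ± 0.15 (0.00303). The other 7 tested members of that family were not called. Cyp4a10, Cyp4a14 and Cyp4a31, fatty acid omega-hydroxylases that neighbour each other on chromosome 4, rose by 2.02 ± 0.41 (0.0148), 2.23 ± 0.50 (0.0282) and 1.87 ± 0.44 (0.0363). The other 3 tested Cyp4a genes were not called, Cyp4a12a at -0.49 ± 0.38 (0.544), Cyp4a12b at 0.47 ± 0.52 (0.676) and Cyp4a32 at 0.55 ± 0.18 (0.15). These families hold near-identical copies, and reads shared between copies could have been split between them.

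The vehicle libraries differed widely in the Cyp4a genes. Cyp4a14 ran from 798 to 17237 normalized counts with vehicle (median 9038) and from 16807 to 60560 with GW3965 (median 29514), and it was lost in 6 of the 17 fits that left out a library (limma, highest adjusted p 0.0766). Cyp4a31 was lost in 13 and Pdk4, pyruvate dehydrogenase kinase, at 1.19 ± 0.29 (adjusted p = 0.047), in 12. The 6 calls among other PPARA targets ranged from 3 to 7 when 1 library was left out. They numbered 3 without control vehicle 3, Gata4LKO vehicle 7 or 8, control GW3965 10 or 12, or Gata4LKO GW3965 18. They were 4 without the libraries of high mitochondrial share and 2 with the Gm5345 class as a term. The 7 peroxisomal calls stayed at 7 in number in every fit without 1 library. Ppara itself stood at 0.05 ± 0.13 (0.892), Fgf21 at 0.13 ± 0.72 (0.946), Angptl4 at -0.01 ± 0.12 (0.986) and Plin2 at 0.47 ± 0.15 (0.154). Of 19 mitochondrial fatty acid oxidation genes none was called, with a list median of 0.03.

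**Figure D4:**
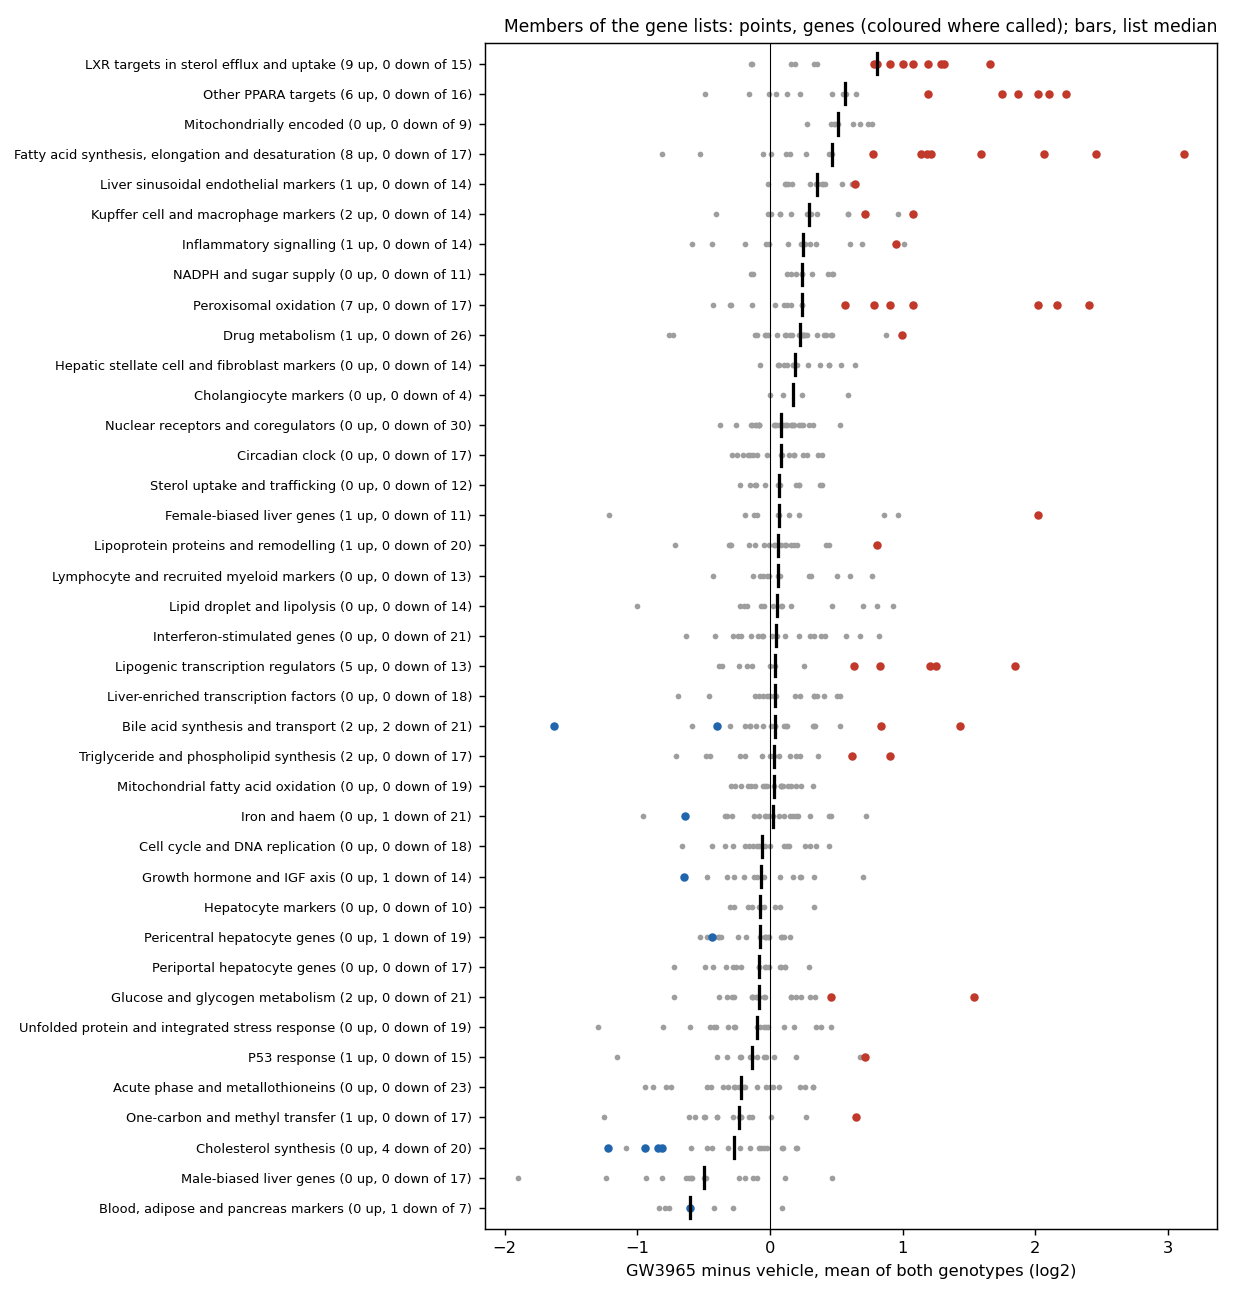
Averaged GW3965 minus vehicle difference (log2, horizontal) of each tested member of the 39 gene lists (vertical, ordered by list median); red points were called higher, blue points lower, and bars mark the median. Sterol efflux targets have the highest median, 0.81, and the blood, adipose and pancreas markers the lowest, -0.60. The lists were chosen with earlier results of these data known, so their order carries no test.

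Genes outside the lists made up 181 of the 238 calls. Inmt, an indolethylamine N-methyltransferase, had the second smallest p of all genes. It was at 2306, 3847, 2505 and 3779 normalized counts in control vehicle libraries and 10885, 14793, 9714 and 7903 with GW3965, against 3979, 2971, 4455 and 3754 and then 9819, 7627, 9472, 8660 and 7238 in Gata4LKO. The arms stood well apart, with an averaged rise of 1.49 ± 0.14 (limma adjusted p = 1.73e-05). Hsd17b11, a lipid droplet dehydrogenase, rose by 1.18 ± 0.14 (0.00022), Tmem135, a peroxisomal membrane protein, by 0.74 ± 0.09 (0.00022), Lipa, the lysosomal acid lipase that frees cholesterol from esters, by 0.60 ± 0.08 (0.000304) and Cert1, the ceramide transfer protein, by 0.69 ± 0.09 (0.000417). None of these 4 had overlapping arms.

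Other large rises were in genes of low or moderate level. Adam11, a disintegrin-like membrane protein, ranged from 58.1 to 364 normalized counts with vehicle and from 469 to 3087 with GW3965 and rose by 2.73 ± 0.33 (limma adjusted p = 0.00022). Slc2a4, which encodes the insulin-responsive glucose transporter GLUT4 of muscle and fat, was at 1.26, 14.5, 17.0 and 5.82 in control vehicle libraries and 25.8, 78.0, 50.7 and 21.3 with GW3965. In Gata4LKO it was at 0.667, 0, 1.64 and 1.75 and then 30.6, 13.9, 257, 19.3 and 50.2. It rose by 3.38 ± 0.54 on the log2(value + 1) scale (0.00236), and 1 GW3965 library, Gata4LKO 15, fell within the vehicle range. Krt23, a keratin, rose by 2.19 ± 0.35 (0.00216), and Gm34654 by 2.31 ± 0.39 (0.00385), both without overlap. Gm32468 rose by 2.48 ± 0.47 (0.00879), Gm19619 by 2.38 ± 0.54 (0.0281), Unc79 by 2.37 ± 0.50 (0.0188) and Tmc3 by 2.21 ± 0.45 (0.0133). Gm19619 was lost in 4 of the fits that left out a library and Unc79 in 1.

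The steepest falls included Dnai1, a dynein intermediate chain of cilia, at -2.59 ± 0.62 (limma adjusted p = 0.0411), and Enho, the gene for the peptide adropin, at -1.29 ± 0.31 (0.0416). These 2 genes overlap on chromosome 4, and whether the counting used strand is not given here, so their reads cannot be told apart. Both were lost in 12 of the 17 fits that left out a library. Gm26608 fell from 44.2 to 78.0 normalized counts with vehicle to 7.71 to 28.6 with GW3965, without overlap, at -1.87 ± 0.25 (0.000417). It lies 258 bases from Insig1, which rose by 0.63. Gm36264 had -1.54 ± 0.27 (0.0056), Col5a3, a collagen chain, -1.06 ± 0.23 (0.0239), Tuft1 -0.92 ± 0.15 (0.00257), Adora1, the adenosine A1 receptor, -0.90 ± 0.16 (0.00637) and Dnhd1 -0.90 ± 0.20 (0.0297). Col5a3 was lost in 4 of those fits, Dnhd1 in 8 and Kcnk10 in 15.

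Among the smaller falls were 5 plasma proteins, singled out here after the values were seen, so they carry no test as a group. Apof, an apolipoprotein that inhibits cholesteryl ester transfer in humans, ranged from 5882 to 9333 normalized counts with vehicle and from 3904 to 6126 with GW3965, at -0.56 ± 0.08 (limma adjusted p = 0.00142). Its neighbour Apon had -0.55 ± 0.09 (0.00376) with no overlap. F11, coagulation factor XI, had -0.69 ± 0.13 (0.00699), C4bp, the complement C4 binding protein, -0.56 ± 0.12 (0.0164) and Igfals, which carries insulin-like growth factors in plasma, -0.64 ± 0.16 (0.048). F11 and Igfals had no overlap between arms, and Igfals was lost in 13 of the 17 fits without 1 library. In the lists, Lect2, a secreted hepatokine, was called lower at -0.43 ± 0.10 (0.0378) and Slc39a14, a zinc and iron importer, at -0.64 ± 0.16 (0.049), each lost in 11 of those fits. Of 20 lipoprotein genes only Pltp was called, and it rose. Of 16 clade A serpins, a family also singled out later, 2 fell, where 0.441% of all genes tested were called lower. Of 23 acute phase genes none was called, with a list median of -0.22. Their differences were negative in 17, against 6839 of 13379 over all genes tested.

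Other lists gave few calls, where 1.34% of all genes tested were called higher and 0.441% lower. Glucose and glycogen genes gave Irs1 (0.46 ± 0.11, limma adjusted p = 0.049), lost in 14 of the 17 fits without 1 library, and Ppp1r3g, a glycogen-targeting phosphatase subunit (1.53 ± 0.33, 0.0207), lost in 2, of 21 members. Mat2a, the methionine adenosyltransferase that makes S-adenosylmethionine, rose by 0.65 ± 0.12 (0.00743) with no overlap, the only call among 17 one-carbon genes tested. Fas, the death receptor, rose by 0.72 ± 0.12 (0.00357) with no overlap, the only call among 15 genes of the p53 response list. Gsta2 rose by 1.00 ± 0.24 (0.0452), the only call among 26 drug metabolism genes, lost in 12 of those fits. No member was called among 21 interferon-stimulated genes, 19 genes of the unfolded protein and integrated stress response, 18 cell cycle genes, 17 clock genes, 17 periportal genes, 18 liver-enriched transcription factors or 30 nuclear receptors and coregulators.

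Genes with male-biased expression in mouse liver leaned low without a call. Of 17, 15 had negative averaged differences, against 6839 of 13379 over all genes tested. The list median was -0.50, with -0.28 in control and -0.66 in Gata4LKO. The mean of these genes, relative to the vehicle mean of the genotype, was -0.66, -0.11, -1.37, -0.88 and -1.44 (log2) in the 5 Gata4LKO GW3965 libraries and -0.99, 0.57, -0.09 and -0.09 in the 4 control ones. It ran from -0.75 to 0.49 over the vehicle libraries. Of 11 female-biased liver genes tested, 1 was called higher and 7 differences were positive. Their list median was 0.07, with -0.11 in control and 0.43 in Gata4LKO. The 9 mitochondrially encoded transcripts tested all had positive differences (list median 0.51) and none was called.

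Markers of other liver cells were read beside all genes tested, of which 1.34% were called higher and 48.9% had a positive difference. Of 14 Kupffer cell and macrophage markers 2 rose (14.3%), Cd5l and Fcgr1, and 12 differences were positive (list median 0.30). Their summed level ran from 2698 to 5466 normalized counts in vehicle libraries and from 4443 to 7334 with GW3965, and in control alone from 2698 to 3729 and from 4443 to 7334. Cd5l, a secreted macrophage protein, was at 591, 608, 472 and 774 in control vehicle libraries and 2019, 1200, 1580 and 978 with GW3965, against 1125, 1260, 1187 and 945 and then 1404, 1584, 1194, 933 and 1609 in Gata4LKO. The control arms did not overlap and the Gata4LKO arms did, with an averaged rise of 0.72 ± 0.15 (limma adjusted p = 0.0139). Clec4f, the defining Kupffer cell lectin, had 0.36 ± 0.11 (0.138) and Adgre1 0.59 ± 0.21 (0.199). Whether the numbers of these cells differ between the arms was not tested.

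Of 14 sinusoidal endothelial markers 1 rose (7.14%), Cdh5, the endothelial cadherin, by 0.64 ± 0.10 (limma adjusted p = 0.00216). Differences were positive for 13 of the 14 (list median 0.36), against 48.9% of all genes tested. The summed level of these markers ran from 6267 to 7598 normalized counts with vehicle and from 6298 to 10654 with GW3965. Stellate cell markers summed to between 4539 and 6099 with vehicle and between 4706 and 8496 with GW3965, with no call among 14. Differences were positive for 13 of these 14 (list median 0.19, with 0.02 in control and 0.40 in Gata4LKO). Of 13 lymphocyte and recruited myeloid markers tested none was called, with 7 positive and 6 negative differences and a list median of 0.06, and of 4 cholangiocyte markers tested none was. Of the 7 tested markers of blood, adipose tissue and pancreas, Alas2, the erythroid haem synthase, fell by 0.60 ± 0.14 (0.0363) and was lost in 11 of the 17 fits without 1 library. The 10 hepatocyte markers, with no call, summed to between 1551100 and 2119280 with vehicle and between 1463310 and 2373890 with GW3965.

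The response was next read in each genotype. It had the same sign in both for 237 of the 238, the exception being Olfr1034 (-1.32 in control and 0.07 in Gata4LKO), but choosing genes by the average favours equal signs. The contrasts of the 2 genotypes share no library, so genes chosen in one can be read in the other. They do share the fit's estimate of each gene's spread, so a small p in one favours a small p in the other. The signs do not depend on that estimate. Of the 81 genes called higher in control (0.605% of those tested), 75 had a positive difference in Gata4LKO and 57 an unadjusted limma p below 0.05 in that direction, against 49.4% and 6.41% of all genes tested. The medians were 1.12 in control and 0.66 in Gata4LKO. Of the 25 called lower in control (0.187%), 16 were negative in Gata4LKO and 7 had such a p, against 50.6% and 5.55% of all genes tested, with medians of -0.98 and -0.20. The higher genes of Gata4LKO were read in the same way: of those 27, 25 were positive in control and 22 had such a p, against 49.1% and 5.02% of all genes. The 6 lower genes of Gata4LKO were all negative in control, and 4 had such a p, against 50.9% and 3.95%.

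The interaction of genotype and treatment was called for 2 of 13379 genes (0.0149%), neither of them among the 238. Sult1e1, oestrogen sulfotransferase, was at 92.2, 90.2, 155 and 67.9 normalized counts in control vehicle libraries and 10.8, 30, 8.74 and 13.3 with GW3965, but at 8.68, 9.47, 17.2 and 15.8 and then 18.1, 49.0, 26.8, 17.3 and 62.5 in Gata4LKO. It fell by 2.70 in control (limma adjusted p = 0.00793) and stood at 1.25 in Gata4LKO (0.265), with an interaction of 3.95 (0.0374) and an averaged difference of -0.73 ± 0.30 (0.262). The other was Gm5345, whose level splits the libraries as described above. Both interaction calls were lost with edgeR and when any 1 of the 4 control vehicle libraries was left out. Fits that left out 1 library called 0 to 9 genes for the interaction. Among the 238, the smallest unadjusted interaction p values were those of Olfr1034 (0.000308), Cyth4 (0.00121), Cd5l (0.00366) and Rnf24 (0.00666), none called. The response was larger in control for 149 of the 238, none of which limma called for the interaction. The 238 include 69 genes called in control only and 13 in Gata4LKO only. The share over all genes tested was not taken, so the count does not compare the genotypes.

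**Figure D5:**
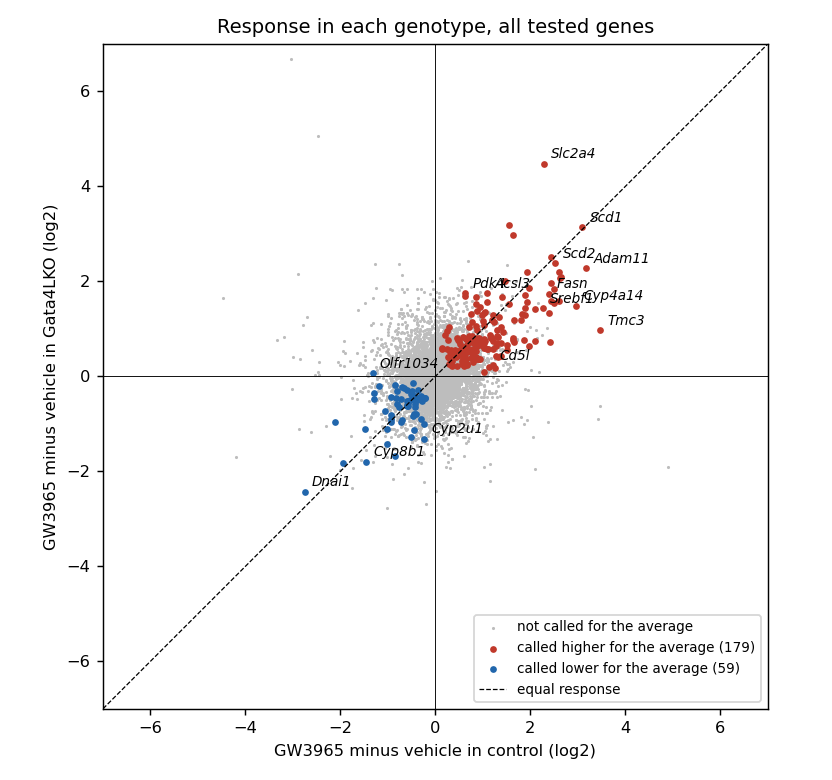
GW3965 minus vehicle (log2) in control (horizontal) and in Gata4LKO (vertical) for each of 13379 tested genes; coloured points were called for the average and the dashed line marks an equal response. Of the 238 coloured genes 237 have the same sign on both axes, and Slc2a4, near the floor in most vehicle libraries, is at 2.29 and 4.48.

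The authors' deposited tables of GW3965 against vehicle gave an adjusted p below 0.05 for 139 of the 238 genes in control and for 110 in Gata4LKO. Of the 238 genes, 61 passed in both genotypes in the authors' deposited tables, 188 in at least 1 and 50 in neither. Srebf1, which limma called in control and not in Gata4LKO alone, had log2 fold changes of 2.30 and 1.62 there, with adjusted p of 0.0004 and 0.0307 in the authors' deposited tables. Hopx, which limma called in neither genotype alone, had -0.43 and -0.42 in the authors' deposited tables, with adjusted p of 0.00656 and 0.00769. Cyp8b1 passed in neither, at -1.14 and -1.53 in the authors' deposited tables. For the interaction, the authors' deposited table gave an adjusted p below 0.05 for 1 of the 238 genes, Olfr1034 (1.40, adjusted p = 0.0198).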

How the data were processed

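RNA from frozen liver was extracted with TRIzol and an RNeasy kit, and the library kit was KAPA mRNA Hyperprep, per the labels' protocols. Per the submitters' processing notes, STAR 2.6.0c, mm10, FastQC and DESeq2 were used; which read counter, annotation and strand setting is not stated. The deposited table holds a normalized signal: each gene's reads over a size factor of the library, since undoing that factor gave whole reads within 0.05 for 100% of values. The authors' comparison tables give log2 fold changes and p-values with adjusted p-values, per the file headers. All library columns matched a sample, and 422 genes without a symbol were kept by identifier.

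The test was limma-trend (limma 3.58.1, R 4.3.3) with each of the 4 groups as a coefficient, fitted to log2(value + 1), 13 residual degrees of freedom, the contrast averaged over genotypes and Benjamini-Hochberg adjustment over 13379 genes, called below 0.05. This scale understates changes of low genes. Errors of differences are standard errors of the fit. The 11.8 to 22.05 M reads per library set the counting precision, and in a pair of replicates the counts always differed by more than sampling noise. Alternatives included edgeR 4.0.16 and DESeq2 1.42.0 on recovered reads. On data simulated for the averaged effect over 13379 genes, 78% of 2-fold and 92% of 4-fold changes were recovered, with 13 false calls. Simulated counts were drawn independently for each gene, without a genotype effect or shifts shared by many genes of a library. Recovery and false calls in the real libraries can therefore differ. Named genes were the 12 largest calls in each direction, the 6 with the smallest p in each direction, called list members (up to 6 per direction and list), the 6 in each direction called in neither genotype alone, the 4 with the smallest interaction p and Gata4; other genes are given as list or family members or were chosen after their values were seen. The 39 gene lists and the choice of contrast were made with earlier results of these data known. Promoter windows are from RefSeq (GRCm38.p6) and matched 134 of 179 higher and 42 of 59 lower genes; positions follow GENCODE M21 (mm10). Some genes are not reported here. Figures were drawn with matplotlib.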

Additional observations from a re-analysis of the deposited data

Results flagged for a closer look

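Within groups of 4 or 5 libraries, 29 of 348 checks of a named gene, or of the mitochondrial share, found 1 library far from the others; chance marks about 1 in 20 such groups, and no cause was tested. Gata4LKO GW3965 library 16 stood high in several of the raised genes. It was at 9363 normalized counts of Srebf1 where the other 4 libraries of its group ran from 2124 to 3869, at 3087 of Adam11 (others 469 to 928), at 257 of Slc2a4 (13.9 to 50.2), at 1703 of Acaca (658 to 954), at 1694 of Mid1ip1 (364 to 628), at 1867 of Acot1 (1108 to 1326) and at 60560 of Cyp4a14 (16807 to 22338). Gata4LKO vehicle library 6 was high in Acot1 (749, others 329 to 390) and in Adam11 (364, others 141 to 166). These 2 libraries detected the fewest genes, and the averaged effect without them is given with the other settings.

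Control vehicle library 1, whose mitochondrial share was 19.0% (others 6.26 to 6.61%), was high in genes raised by GW3965: Acaa1b at 6978 (others 3202 to 3310), Ehhadh at 6093 (4204 to 4384) and Cyp4a31 at 1364 (97.5 to 268). Control GW3965 library 10 was high in Mlxipl (10266, others 4712 to 5582), Irs1 (603, others 388 to 420) and Krt23 (114, others 60.01 to 65.6), and low in Gm8941 (190, others 385 to 423). Control GW3965 library 9 was high in Acot3 (1474, others 530 to 664).

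Gata4LKO GW3965 library 17 was high in Cyp51 (1873, others 926 to 1124) and Cyp4a31 (2151, others 695 to 964), and low in Cyth4 (69.4, others 81.5 to 83.7). Gata4LKO GW3965 library 15 was high in Tuft1 (62.1, others 34.8 to 42.4) and Kcnk10 (22.1, others 3.85 to 7.85), and library 18 in Tmc3 (54.7, others 7.95 to 17.97). Control vehicle library 2 was high in Dnai1 (72.4, others 20.4 to 26.5) and low in Mocs1 (1483, others 1799 to 1832). Among Gata4LKO vehicle libraries, number 8 was low in Scd2 (71.0, others 87.3 to 89.5), number 5 in Sqle (549, others 739 to 774) and number 7 in Ppp1r3g (6.57, others 23.1 to 26.3).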

How the results depend on the processing

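No paired analysis was possible because the replicate numbers in the titles are unique, so the groups share none. No result reversed its direction under any alternative. Of the 238 calls for the average, 124 were kept in all 17 fits that left out 1 library and 76 under every setting. Those fits gave 142 to 334 calls for the average, 118 to 233 higher, 22 to 101 lower, 22 to 129 in control, 6 to 78 in Gata4LKO and 0 to 9 for the interaction, and the mitochondrial share ran from 2.46 to 6.37 percentage points. Leaving out control vehicle 3 (142) or 4 (156), Gata4LKO vehicle 7 (149) or 8 (144), control GW3965 10 (143) or Gata4LKO GW3965 18 (146) moved the total by over 1.5 times. Without control vehicle 1 the total was 334. DESeq2 on recovered reads gave 527 calls (351 higher, 176 lower), 226 in control, 200 in Gata4LKO and 26 for the interaction, and array weights gave 667 (450, 217), 247, 355 and 40. Higher calls made up 75.2% of the main calls and 66.6% and 67.5% of these. edgeR gave 231 for the average (219 shared) and 0 for the interaction. In the main limma fit, 622 of 13379 genes had an unadjusted interaction p below 0.05, no more than chance alone gives at that threshold. With no filter, 36 genes were lower and 57 were called in control. A mean of at least 50 gave 0 and a pseudocount of 8 gave 1 for the interaction. Without the 5 libraries of high mitochondrial share, 186 were called for the average (120 shared), 63 in control and 1 for the interaction; those 5 include no Gata4LKO vehicle library, so no averaged effect exists within them. That share as a term gave 4 for the interaction. With the Gm5345 class as a term, 164 were called for the average, 12 in control, 1 in Gata4LKO and 0 for the interaction. Only the control GW3965 group holds both classes, so its libraries alone set that term. Without the 2 libraries that detected the fewest genes, a setting chosen after seeing the data, 181 were called for the average, 31 of them lower, 4 in Gata4LKO and 0 for the interaction. The causes of these shifts were not tested. Depth limits mainly genes of low level, where single reads move the log2(value + 1) scale.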

Other observations

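Genes known for expression in leukocytes appeared among the calls outside the lists; they were picked after their values were seen, so their number carries no test. The list of lymphocyte and recruited myeloid markers gave no call among 13 tested members, with 7 positive and 6 negative differences and a median of 0.06 (0.54 in control and 0.0037 in Gata4LKO). Hcls1, a haematopoietic actin regulator, ranged from 47.3 to 107 normalized counts with vehicle and from 119 to 197 with GW3965, without overlap, and rose by 0.81 ± 0.16 (SE, log2; limma adjusted p = 0.00952), 0.77 in control and 0.86 in Gata4LKO. Il18bp, the decoy receptor of interleukin-18, rose by 0.86 ± 0.13 (0.00149) and Treml4, a myeloid surface receptor, by 0.83 ± 0.16 (0.00938), both without overlap. Itgb2, the beta chain of leukocyte integrins, rose by 0.64 ± 0.16 (0.049), Mpeg1, a pore-forming protein of macrophages, by 0.59 ± 0.14 (0.0381), Cd53 by 0.66 ± 0.16 (0.0468) and Fgr, a myeloid kinase, by 0.85 ± 0.19 (0.0242). Of the 17 limma fits that left out a library, Itgb2 was lost in 14 (highest adjusted p 0.107), Cd53 in 14 (0.106), Mpeg1 in 10 (0.0884) and Fgr in 5 (0.0607). Without the 5 libraries of high mitochondrial share, Itgb2 (limma adjusted p = 0.146), Cd53 (0.142), Fgr (0.0857), Treml4 (0.0608) and Il1a (0.0999) were also lost. Cd53 was at 1.12 in control and 0.20 in Gata4LKO, with an unadjusted interaction p of 0.0113 (adjusted 0.896). Il1a, an interleukin of the inflammatory list, rose by 0.95 ± 0.18 (0.0101) and was the only call among its 14 tested members. Summed Kupffer cell and macrophage markers were higher with GW3965 in control, at 4443 to 7334 against 2698 to 3729, and overlapped in Gata4LKO, at 4669 to 6955 against 4551 to 5466; the part of cell numbers in these rises was not tested.

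Called genes also lay beside each other. Within 50 kb, 23 pairs of called genes were found, of which 22 moved in the same direction. Abcg5 and Abcg8, which share a start region on chromosome 17, were joined by Dync2li1, a ciliary dynein chain, which ran from 0 to 11.4 normalized counts with vehicle and from 12.5 to 57.0 with GW3965 and rose by 2.06 ± 0.45 (limma adjusted p = 0.0243). Slc17a1 and Slc17a3, urate and phosphate transporters on chromosome 13, fell together, by 0.69 ± 0.16 (0.0353) and 0.44 ± 0.11 (0.0395). Uox, urate oxidase, rose by 0.69 ± 0.11 (0.00299) without overlap, and shares sequence with the called gene Dnase2b. Of the 238 called genes, 53 overlap another tested gene, and with the strand setting not given their reads cannot be told apart from those of the partner.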
